A study of Rattus norvegicus with 196 samples.

Results

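The ventral tegmental area (VTA) was compared with the periaqueductal gray (PAG) in untreated rats. The 8 samples are all those of the series that carry the treatment label Sham and one of these 2 region labels, 4 of the VTA and 4 of the PAG out of 196 samples in all, and they were paired by their replicate numbers 1, 3, 4 and 5. The series measured RNA by sequencing in brain punches of 25 regions from Sham rats and from rats given fluoxetine (FT). Sham animals were naive male Long-Evans rats, 2 months old at the start, that drank water, while FT animals of the same strain, sex and age took fluoxetine in the drinking water, 18 mg/kg daily over 6 weeks. Each sample pooled punches of 10 of the 40 rats of its group, so a sample stands for a pool and not for an animal. The FT samples of both regions, 4 and 4, were used as a second look at the same contrast in other animals.

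The VTA lies on the floor of the midbrain and holds dopamine neurons, which make dopamine from tyrosine with tyrosine hydroxylase and take it back up with the dopamine transporter, together with GABA and glutamate neurons. The PAG surrounds the cerebral aqueduct, is lined by ependyma, and is known for its part in pain control, defensive behaviour and autonomic output. Both regions are crossed by myelinated fibres, and both lie close to other structures that a punch can reach.

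The number of reads counted on transcripts was 2041893, 6480942, 12389378 and 15631077 in VTA replicates 1, 3, 4 and 5, and 5405992, 4872671, 10314811 and 19003719 in the PAG. VTA replicate 1 was the shallowest. The libraries of replicate 3 stood apart in both regions, since the 50 transcripts with the most reads took 76.4% of the counts in the VTA and 72.7% in the PAG, against 53.3% in VTA replicate 1 and between 27.6% and 36.4% in the other 5 libraries. One transcript without a name, ENSRNOT00000069133, singled out after its values were seen, held 45.3% and 30.3% of the counts of the VTA and PAG libraries of replicate 3, 23.4% in VTA replicate 1 and between 6.96% and 11.9% in the other 5 libraries. Levels below are given in CPM, the reads of a transcript scaled to a common library total, after TMM scaling, which sets libraries of unlike makeup on one scale, in the order of replicates 1, 3, 4 and 5. They are not divided by transcript length, so they compare samples and not genes.

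The edgeR quasi-likelihood test with the replicate number as a block found 521 of 13055 transcripts called between the regions, or 3.99%, where a call needs a log2FC of 0.322 or more in either direction and a p of 0.1 or less after Benjamini-Hochberg adjustment. Of these, 193 were higher in the VTA (1.48% of those tested) and 328 were higher in the PAG (2.51%). The differences were larger on the PAG side. The median log2FC was 1.10 for calls higher in the VTA and -1.68 for calls higher in the PAG, and an absolute log2FC of at least 2 was reached by 19 and 124 transcripts, respectively. Over all transcripts tested the median was -0.01. The difference had the same sign in all 4 pairs for 516 of the 521 calls, against 28.7% of all transcripts tested, and the 4 samples of one region lay wholly above those of the other for 331 calls, against 4.89% of all tested. The number of calls depended on the samples and the model. It fell to 61 without the replicate block, to 180 without replicate 3 and to 100 without replicate 4, and none of the 521 that could be fitted changed direction there.

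**Figure D1:**
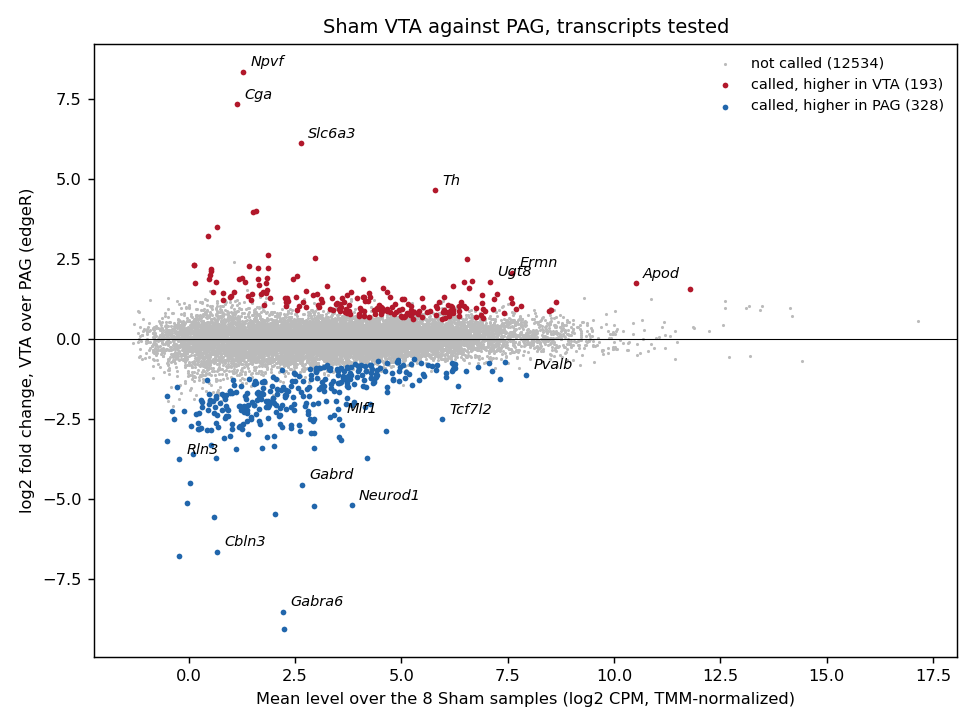
Log2 fold change of the VTA over the PAG (y axis) against the mean level over the 8 Sham samples (x axis, log2 CPM) for the 13055 transcripts tested. Red points are the 193 transcripts called higher in the VTA and blue points the 328 called higher in the PAG, and the blue points reach down to -9.06 and the red points up to 8.35.

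Names were available for 1831 of the transcripts tested, of which 37 were called higher in the VTA and 56 higher in the PAG, while 428 calls have no name here. The names come from a list of transcripts that the study called between FT and Sham samples in at least 2 regions, so the named genes are a selected part of the transcriptome. Among transcripts without a name, large differences were those of ENSRNOT00000016452, at 16.4 CPM ± 10.6 (SD, n = 4) in the VTA and 0.969 CPM ± 0.595 in the PAG, of ENSRNOT00000006163, at 13.8 CPM ± 1.32 and 0.630 CPM ± 0.575, and of ENSRNOT00000001313, at 0.185 CPM ± 0.283 and 114 CPM ± 94.6. The first of these overlapped between the regions because of VTA replicate 1, and the others did not.

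Th and Slc6a3, the 2 defining dopamine neuron genes with an identifier, separated the regions in every sample. Th (ENSRNOT00000027682), which encodes tyrosine hydroxylase, the rate-limiting enzyme of catecholamine synthesis, was at 364, 427, 145 and 253 CPM in the VTA and at 13.9, 14.9, 5.88 and 11.3 CPM in the PAG. The lowest VTA sample lay far above the highest PAG sample. The mean was 297 CPM ± 124 (SD, n = 4) against 11.5 CPM ± 4.05, a log2FC of 4.65 ± 0.19 (SE; edgeR adjusted p = 1.13e-06). Slc6a3 (ENSRNOT00000040291), the dopamine transporter, which marks dopamine neurons more narrowly than Th, was at 5.45, 166, 57.8 and 64.2 CPM in the VTA and at 0.160, 1.86, 0.619 and 1.14 CPM in the PAG. VTA replicate 1, with 9 reads on this transcript, was the lowest of its group and still above every PAG sample. The log2FC was 6.11 ± 0.27 (SE; edgeR adjusted p = 1.31e-06). Both markers were thus high in the samples labelled VTA and low, but not at 0, in the samples labelled PAG. In bulk samples, fewer cells of a type and less RNA per cell cannot be told apart.

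The start of Th is shown because this gene carries the clearest label check. Its RefSeq promoter entry runs from 250 bases before to 50 bases after the start, at chr1:207508169-207508468 on the minus strand of GRCr8, and the capitals mark the cyclic AMP response element TGACGTCA, a palindrome and so the same on both strands, at positions -69 to -62 from the start.
Th: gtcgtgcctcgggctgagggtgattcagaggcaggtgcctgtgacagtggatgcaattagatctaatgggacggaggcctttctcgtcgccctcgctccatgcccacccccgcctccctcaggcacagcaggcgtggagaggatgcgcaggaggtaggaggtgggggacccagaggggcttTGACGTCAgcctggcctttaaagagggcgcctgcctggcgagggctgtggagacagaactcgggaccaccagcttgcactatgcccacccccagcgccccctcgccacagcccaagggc
These letters occur in the entries of 549 of 27457 genes, or 2%, and not in those of Slc6a3 and Gabra6. A match is a description of the sequence and not a measured binding site.

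Of 11 genes listed for dopamine synthesis, storage and uptake, 3 had an identifier, and Th and Slc6a3 were the 2 called, both higher in the VTA as were 1.48% of all transcripts tested. The third, Qdpr, which regenerates the cofactor of tyrosine hydroxylase and is also abundant in oligodendrocytes, had a log2FC of 0.67 (edgeR adjusted p = 0.155). Of 28 dopamine neuron transcription factors and subtype markers, 5 had an identifier and 2 were called, both higher in the VTA (1.48% of all transcripts tested were). Cck, the peptide cholecystokinin that part of the VTA dopamine neurons make, was at 32.1, 149, 6.24 and 10.4 CPM in the VTA and at 18.1, 47.0, 2.60 and 4.07 CPM in the PAG. The groups overlapped because the level varied between replicate numbers, yet the VTA sample was the higher one in each of the 4 pairs (log2FC = 1.29 ± 0.20 SE, edgeR adjusted p = 0.00841). Tacr3, the receptor for neurokinin B, was at 13.4 CPM ± 0.916 (SD, n = 4) in the VTA and 5.52 CPM ± 1.399 in the PAG without overlap (log2FC = 1.24, edgeR adjusted p = 0.0178). Without replicate 3 neither was called (Cck log2FC = 1.10, Tacr3 1.15), nor was Tacr3 without replicate 4 (1.38). Sncg (log2FC = -0.11), Klhl1 (0.05) and Vip (-0.65) did not pass the test. Drd2, Ddc, Slc18a2, Nr4a2 and Pitx3 were not analysed here, and of 10 serotonin neuron markers Htr1a was the 1 with an identifier and had too few reads to be tested.

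**Figure D2:**
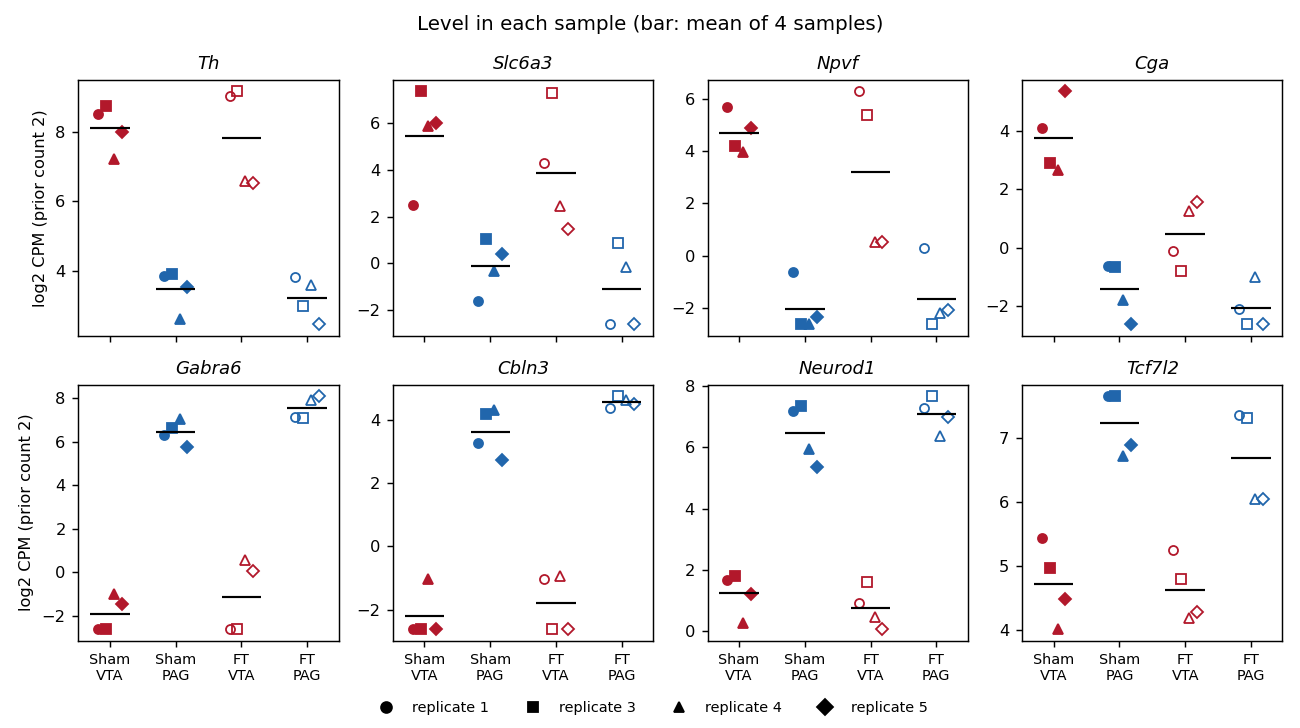
Level of 8 genes in each sample (y axis, log2 CPM with a prior count of 2) of Sham VTA, Sham PAG, FT VTA and FT PAG, with the replicate number as marker shape, FT samples as open markers and the mean of 4 samples as a bar. In Sham, VTA and PAG samples do not overlap for any of the 8 genes, and in FT the Npvf and Slc6a3 levels of VTA replicates 4 and 5 are far below those of replicates 1 and 3.

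The 2 named transcripts with the largest log2FC towards the VTA encode a peptide precursor and a hormone subunit. Npvf (ENSRNOT00000014437), the precursor of RFamide-related peptides, was at 50.9, 18.0, 15.3 and 29.2 CPM in the VTA. In the PAG it had 3, 0, 0 and 1 reads (log2FC = 8.35 ± 0.48 SE, edgeR adjusted p = 1.18e-05). Cga (ENSRNOT00000012385), the alpha subunit shared by the pituitary glycoprotein hormones, was at 16.96, 7.36, 6.13 and 40.4 CPM in the VTA and had 3, 1, 2 and 0 reads in the PAG (log2FC = 7.33 ± 0.79 SE, edgeR adjusted p = 0.00162). Neither gene overlapped between the regions. Because so few PAG reads stand behind them, these fold changes are less precise than those of Th. Their dependence on the prior count of the fit was not tested. DESeq2 gave a log2FC of 8.36 for Npvf and 6.14 for Cga. With 1 replicate left out, the log2FC of Npvf ran from 7.54 (without replicate 5) to 9.76 (without replicate 1) and that of Cga from 5.07 (without replicate 5) to 8.44 (without replicate 1).

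Npvf is known from the hypothalamus. Over the 25 Sham regions Npvf and Cga both had their highest median in Arc, the arcuate nucleus. VMH, the ventromedial nucleus, followed for both, and then the VTA. Arc has 2 Sham samples, replicates 4 and 5, and every other region has 4. Over replicates 4 and 5 alone, Arc was again first for both genes and the VTA second (Npvf 23.7 CPM, Cga 24.6 CPM). Over all samples the medians of Npvf in Arc, VMH and the VTA were 98.0, 26.7 and 24.6 CPM, and those of Cga were 259, 17.6 and 13.1 CPM. Asb4, a gene of a ubiquitin ligase family, had its highest median in Arc as well, at 43.3 CPM, and its log2FC towards the VTA was 1.87 (edgeR adjusted p = 0.0148), with overlapping groups and no call without replicate 4 (1.93) or replicate 5 (2.04). Slc6a3 had its second highest median in Arc, at 20.9 CPM. Of 14 listed hypothalamic markers, 4 had an identifier and 2 were tested, neither of which passed. Hcrt, the orexin precursor, was at 1.21, 11.9, 1.61 and 11.9 CPM in the VTA and at 64.4, 71.7, 0.433 and 2.03 CPM in the PAG. Replicates 1 and 3 were thus high in the PAG and replicates 4 and 5 were not (log2FC = -0.61 ± 1.06 SE, edgeR adjusted p = 0.804). Cartpt, the precursor of CART peptides, had a log2FC of 0.73 ± 0.63 (edgeR adjusted p = 0.601). Its pairs were split, with log2 differences of -1.18, -0.48, 3.35 and 1.56 in replicates 1, 3, 4 and 5. Its mean was lower in the VTA (185 CPM) than in the PAG (246 CPM). The summed level of the 4 genes with an identifier, scaled over Sham and FT samples, was 116, 513, 45.5 and 102 CPM in the VTA and 330, 774, 4.55 and 32.3 CPM in the PAG, and Cartpt had the most reads of them. The part that neighbouring tissue has in the differences of Npvf and Cga was not tested.

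Of the 12 neuropeptide genes tested, 3 were called higher in the VTA (Npvf, Gal and Cck) and 1 higher in the PAG (Rln3), against 1.48% and 2.51% of all transcripts tested. The median log2FC was -0.15. Gal, which encodes galanin, was at 39.4, 17.2, 21.1 and 33.2 CPM in the VTA and at 16.8, 9.31, 4.45 and 19.1 CPM in the PAG, higher in the VTA within each pair although the groups overlapped (log2FC = 1.31 ± 0.26 SE, edgeR adjusted p = 0.0279). Rln3 (ENSRNOT00000007775), the relaxin-3 precursor known from the nucleus incertus and from scattered PAG neurons, had 0, 0, 1 and 8 reads in the VTA and 33, 7, 65 and 44 in the PAG. Its log2FC was -3.75 ± 0.64 (SE; edgeR adjusted p = 0.0136). Without replicate 3 the calls of Gal (log2FC = 1.35) and Cck were lost, and 2 neuropeptides were called. Gal was not called without replicate 4 either (1.00), nor in one fit with the FT samples (log2FC = 1.31, edgeR adjusted p = 0.147), and Rln3 had too few reads for the fit without replicate 4 or 5. Sst (log2FC = -1.42), Ucn (-1.70) and Nmb (0.96) did not pass the test.

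Oligodendrocyte and myelin genes leaned towards the VTA. Of 27 listed, 13 had an identifier and all 13 had a positive log2FC, with a median of 0.78 against -0.01 over all transcripts, and 6 were called higher in the VTA, where 1.48% of all transcripts tested were. Ermn, which encodes the myelin cytoskeletal protein ermin, was at 447, 522, 416 and 270 CPM in the VTA and at 43.9, 53.6, 188 and 171 CPM in the PAG (log2FC = 2.07 ± 0.45 SE, edgeR adjusted p = 0.0409). The PAG samples fell into a low pair, replicates 1 and 3, and a high pair, replicates 4 and 5, and no PAG sample reached the VTA. Ugt8, which makes the galactolipids of myelin, was at 341, 291, 236 and 174 CPM in the VTA and at 51.1, 56.3, 92.0 and 103 CPM in the PAG (log2FC = 1.79 ± 0.31 SE, edgeR adjusted p = 0.0143). Other called members included Tspan2 (log2FC = 0.93), Aspa (0.88) and Plekhb1 (0.87). The lineage factors Sox10 (0.56), Olig2 (0.71) and Myrf (0.78) did not pass the test. Without replicate 3, 0 of the 13 were called, without replicate 4 and without the replicate block 1 each, while DESeq2 called 10. The differences stayed in the same direction. Ermn had a log2FC of 1.61 without replicate 3 and 2.50 without replicate 4, Ugt8 of 1.55 and 2.00, and Aspa of 0.77 and 0.92. The summed level of the 13 genes was 3273, 3642, 2827 and 2173 CPM in the VTA and 1537, 1487, 1466 and 1695 CPM in the PAG, so the groups did not overlap and replicates 4 and 5 showed the same direction.

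Further genes higher in the VTA are known from myelinating cells as well. Klk6, a secreted serine protease made by oligodendrocytes, was at 230, 182, 198 and 154 CPM in the VTA and 68.3, 49.4, 40.4 and 62.1 CPM in the PAG. Its log2FC was 1.81 ± 0.20 (SE; edgeR adjusted p = 0.00194), and VTA and PAG did not overlap. Apod, which encodes the lipid carrier apolipoprotein D, was at 3427, 2760, 2834 and 1886 CPM in the VTA and 929, 515, 867 and 949 CPM in the PAG (log2FC = 1.75 ± 0.27 SE, edgeR adjusted p = 0.00861). Evi2a (log2FC = 1.59) and Anlnl1 (1.35) were also among the 12 named genes with the largest difference towards the VTA, and neither was called without replicate 3 (1.26 and 1.23). Evi2a was not called without replicate 4 either (1.79). Without replicate 3, Klk6 (log2FC = 1.73, edgeR adjusted p = 0.0472) and Apod (1.48, edgeR adjusted p = 0.0968) were still past the threshold.

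Among named transcripts, the largest differences towards the PAG were those of genes known from cerebellar granule cells. Gabra6 (ENSRNOT00000004877), the alpha 6 subunit of the GABA-A receptor, which is nearly confined to granule cells of the cerebellum and cochlear nucleus in the adult brain, had 0, 0, 6 and 5 reads in the VTA. In the PAG it was at 78.2, 98.3, 130 and 53.5 CPM in all 4 samples (log2FC = -8.52 ± 0.33 SE, edgeR adjusted p = 7.11e-07). Cbln3 (ENSRNOT00000027794), a cerebellin secreted by granule cells, had 6 reads in VTA replicate 4 and none in the other VTA libraries. In the PAG it was at 9.30, 18.2, 19.6 and 6.48 CPM (log2FC = -6.64 ± 0.50 SE, edgeR adjusted p = 9.22e-05), and without replicate 4, which holds the VTA reads, the log2FC was -9.45. Neurod1 (ENSRNOT00000007662), a transcription factor that granule cells keep into adulthood, was at 3.03, 3.27, 1.02 and 2.13 CPM in the VTA and at 142, 163, 60.9 and 40.6 CPM in the PAG (log2FC = -5.19 ± 0.30 SE, edgeR adjusted p = 1.18e-05). None of these 3 genes overlapped between the regions, and each was high in all 4 PAG samples.

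Of 8 listed cerebellar markers, 5 had an identifier and 4 were called, all higher in the PAG (2.51% of all transcripts tested were), and 3 were called without replicate 3 as well as without replicate 4. Ppp1r17, a phosphatase inhibitor known from Purkinje cells, was at 14.6 CPM ± 3.08 (SD, n = 4) in the VTA and 32.7 CPM ± 11.3 in the PAG (log2FC = -1.13, edgeR adjusted p = 0.0376). Cbln1 had a log2FC of -0.29 (edgeR adjusted p = 0.464). The Purkinje cell genes Pcp2, Car8 and Calb1 have no identifier and were not analysed here. The summed level of the 5 genes was 102, 74.5, 57.9 and 55.8 CPM in the VTA and 354, 381, 332 and 162 CPM in the PAG. Of the 5, Neurod1 had the most reads in PAG replicates 1 and 3 and Gabra6 in replicates 4 and 5, with no scaling to length, and Gabra6 and Cbln3 were at 0 in VTA replicates 1 and 3. These genes were therefore present in all 4 Sham pools of the PAG and not in 1 outlying pool. Across the 25 Sham regions, Gabra6 had its highest median in the PAG (91.8 CPM), then in LC, the locus coeruleus (38.4 CPM), and then in Raphe (2.07 CPM), and Cbln3 and Neurod1 also had the PAG first and LC second. Over replicates 4 and 5 alone the PAG stayed first for the 3 genes, and LC stayed second for Gabra6 and Cbln3. The part of cerebellar tissue in the difference between the VTA and the PAG was not tested.

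In Sham, the listed receptors for GABA, glycine and glutamate that passed the test were higher in the PAG. Of 12 listed GABA-A, glycine and glutamate receptor genes tested, 4 were called higher in the PAG and 0 in the VTA, against 2.51% and 1.48% of all transcripts tested, with a median log2FC of -0.27. Beside Gabra6, these were Gabrd, Grm4 and Grin2c, which granule cells of the cerebellum also express. Gabrd (ENSRNOT00000022246), the delta subunit of extrasynaptic GABA-A receptors, was at 0.606, 2.04, 0.968 and 1.06 CPM in the VTA and at 48.1, 48.4, 26.9 and 17.1 CPM in the PAG (log2FC = -4.55 ± 0.29 SE, edgeR adjusted p = 2.30e-05). Grm4, the group III metabotropic glutamate receptor mGlu4, was at 1.21, 5.32, 0.968 and 2.56 CPM in the VTA and at 33.3, 48.9, 3.53 and 12.3 CPM in the PAG. PAG replicate 4 lay below VTA replicate 3, although the PAG was higher in each pair (log2FC = -2.69 ± 0.34 SE, edgeR adjusted p = 0.00474). Grin2c, the NMDA receptor subunit GluN2C, was at 8.25 CPM ± 2.25 (SD, n = 4) in the VTA and 19.1 CPM ± 4.004 in the PAG (log2FC = -1.23, edgeR adjusted p = 0.0119), but was not called without replicate 4 (-1.11). The subunits Gabra3, Gabrb1, Gabrb2 and Gabrg1 and the receptors Glra1, Grik3, Grm3 and Grm7 did not pass the test, and their log2FC lay between -0.65 and 0.61. Unlike Gabra6, Gabrd had its highest median in another region, the dorsomedial thalamus MDT (93.0 CPM), with 39.2 CPM in the PAG.

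Of 52 listed ion channel genes, 11 were tested. Within this list Kcnab1, a beta subunit of voltage-gated potassium channels, was the 1 called, a count too small to set apart from the 3.99% called among all transcripts tested. Kcnab1 was at 38.4 CPM ± 11.5 (SD, n = 4) in the VTA and 66.3 CPM ± 14.4 in the PAG (log2FC = -0.80, edgeR adjusted p = 0.0307). It was not called without replicate 3, 4 or 5 although its log2FC stayed at -0.77, -0.80 and -0.75. Cacnb4 and Ryr1, channel genes outside this list, were also called and are given under other observations. Of the GABA neuron markers, Gad2, the synthesizing enzyme, had a log2FC of 0.01, and Pvalb, the calcium buffer parvalbumin, was at 307, 359, 105 and 66.2 CPM in the VTA and at 519, 829, 276 and 140 CPM in the PAG. The Pvalb groups overlapped, with the PAG sample higher in each of the 4 pairs (log2FC = -1.11 ± 0.19 SE, edgeR adjusted p = 0.0135), and the call was lost without replicate 4 (-0.97). Slc17a6, the vesicular glutamate transporter of subcortical neurons, had a log2FC of 0.53 (edgeR adjusted p = 0.469).

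Tcf7l2 (ENSRNOT00000019681), a Wnt pathway transcription factor that marks thalamus and dorsal midbrain, was at 43.0, 31.1, 15.7 and 21.8 CPM in the VTA and at 198, 199, 104 and 116 CPM in the PAG. The regions did not overlap, and the log2FC was -2.51 ± 0.18 (SE; edgeR adjusted p = 6.47e-05). Among the 25 Sham regions MDT had the highest median (819 CPM) and the PAG was the fourth (163 CPM), or the fifth over replicates 4 and 5 alone. Other genes with large differences towards the PAG were Il16, a cytokine precursor that also has a neuronal form (log2FC = -3.41), the keratin gene Krt8 (-3.35), Pde6h, a phosphodiesterase subunit (-3.04, and -2.77 with no call without replicate 4), and Rgl3, a Ral guanine nucleotide exchange factor (-2.97). Krt8 was at 0, 0.818, 0.753 and 3.27 CPM in the VTA and at 36.9, 40.04, 7.79 and 12.5 CPM in the PAG without overlap. Without replicate 5 the log2FC was -4.47 for Krt8 and -3.96 for Pde6h.

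Several genes of motile cilia were among those called higher in the PAG. The 8 genes described here were picked after their values had been seen, so their shared direction follows from the choice. Of the 8, 5 were called higher in the PAG (2.51% of all transcripts tested were), and 2 were called without replicate 3 and 2 without replicate 4. All had a negative log2FC, with a median of -1.43. Mlf1, a ciliary protein of multiciliated cells, was at 6.06, 4.50, 2.26 and 6.86 CPM in the VTA and at 51.9, 41.0, 19.9 and 15.6 CPM in the PAG (log2FC = -2.49 ± 0.35 SE, edgeR adjusted p = 0.00607). Wdr96, an axonemal protein, was at 9.69, 8.997, 7.15 and 11.9 CPM in the VTA and at 34.6, 48.0, 49.9 and 25.7 CPM in the PAG (log2FC = -2.02 ± 0.29 SE, edgeR adjusted p = 0.00607). Neither overlapped between the regions. Drc1 (-1.50) of the nexin-dynein regulatory complex, Tekt4 (-1.49), a tektin of the axonemal microtubules, and Mns1 (-1.36) were also called, and Tekt1 (-1.27), Ccdc39 (-0.41) and the ciliogenic transcription factor Rfx3 (-0.32) were not. Odf3b, a gene of the outer dense fibre family that was not on the list, had a log2FC of -2.79 (edgeR adjusted p = 0.00851). Without replicate 5 the log2FC was -3.11 for Mlf1 and -3.47 for Odf3b.

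RFX factors switch on genes of motile cilia through a short DNA element, and one arm of that element, GTTGCCA or GTTGCTA on either strand (TGGCAAC or TAGCAAC on the other), which share the letters GTTGC, was searched for in the RefSeq promoter entries of GRCr8. It was found in 6 of the 7 genes of the list with an entry, against 2311 of 27457 genes with an entry, or 8.42%. The windows below show the first match of each gene in capitals with 25 bases on either side, written along the gene's strand, at chr8:82029470-82029526 (plus strand) for Mns1, chr2:153958415-153958471 (plus) for Mlf1, chr10:57479129-57479185 (minus) for Tekt1, chr6:31779245-31779301 (minus) for Drc1, chr2:118631545-118631601 (minus) for Ccdc39 and chr1:235122517-235122573 (minus) for Rfx3.
Mns1: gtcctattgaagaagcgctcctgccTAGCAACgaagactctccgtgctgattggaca
Mlf1: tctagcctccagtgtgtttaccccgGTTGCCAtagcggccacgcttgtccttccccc
Tekt1: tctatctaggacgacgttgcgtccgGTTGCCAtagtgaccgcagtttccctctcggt
Drc1: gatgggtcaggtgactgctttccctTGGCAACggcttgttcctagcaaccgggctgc
Ccdc39: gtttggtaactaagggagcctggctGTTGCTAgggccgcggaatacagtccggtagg
Rfx3: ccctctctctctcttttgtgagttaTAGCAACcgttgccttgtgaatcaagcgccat
The match lay between 151 bases before the start, in Mlf1, and 15 bases after it, in Ccdc39. Both called genes, such as Mlf1 and Drc1, and genes that were not called, such as Rfx3, held the letters, and Tekt4, which was called, did not hold them in this window.

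**Figure D3:**
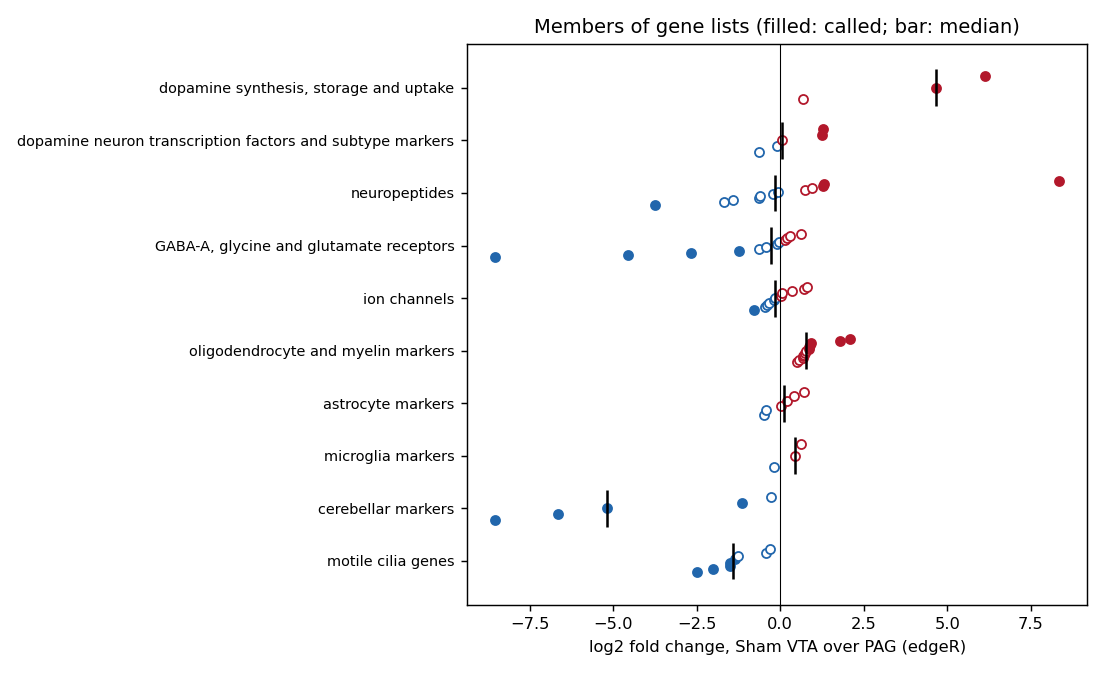
Log2 fold change of the VTA over the PAG in Sham (x axis) of each tested member of the gene lists with at least 3 members tested (y axis), with filled points for called members, open points for the others and a bar for the median. The 3 genes of dopamine synthesis, storage and uptake lie right of 0, the 5 dopamine neuron transcription factors and subtype markers lie on both sides, all 13 oligodendrocyte members lie right of 0, and all 5 cerebellar and all 8 motile cilia members lie left of 0.

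Of the markers of other cell types listed, none passed the test, which in lists this short says little, since 3.99% of all transcripts tested were called. None of the 6 astrocyte markers tested was called (median log2FC = 0.11), nor were the 3 microglia markers (0.43), the 2 choroid plexus genes Ttr (0.24) and Kcnj13 (0.51), the meningeal and blood genes Ptgds (0.60) and Hbb (-0.83), the cholinergic neuron gene Slc5a7 (-1.13), the acetylcholine receptor subunit Chrnb2 (0.48) or the activity-dependent gene Fos (0.03). At an unadjusted level the transcripts tested held 2011 with p under 0.05. DESeq2 called 732 of 23149, or 3.16%. Its base is all transcripts with any read, without the low-count filter, so this share cannot be set against the 3.99% of edgeR. The ependymal gene Foxj1 and the endothelial and oligodendrocyte precursor lists have no identifiers and were not analysed here. The astrocyte gene Apoe held 0.428% and 0.687% of the counts in the 2 libraries of replicate 3 and between 0.0305% and 0.153% in the other 6.

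The FT samples come from other rats and share no library with the Sham samples. The study processed Sham and FT samples of one replicate in parallel, so both contrasts share its processing batches. In replicate 3 the 50 transcripts with the most reads took 74.6% of the counts in the FT VTA and 74.9% in the FT PAG. In FT, 1734 of 12985 transcripts tested were called between the regions (13.4%), 774 higher in the VTA (5.96%) and 960 higher in the PAG (7.39%). Of the 521 Sham calls, 505 were tested in FT. The sign was the same for 500 of them and opposite for 5, against 63.7% with the same sign among the 12626 transcripts tested in both, and 426 were called again in the same direction. These 426 are 81.8% of the Sham calls and 24.6% of the FT calls. All 13 oligodendrocyte genes, all 5 cerebellar genes and 7 of the 8 motile cilia genes were called in FT, in the same directions as in Sham.

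**Figure D4:**
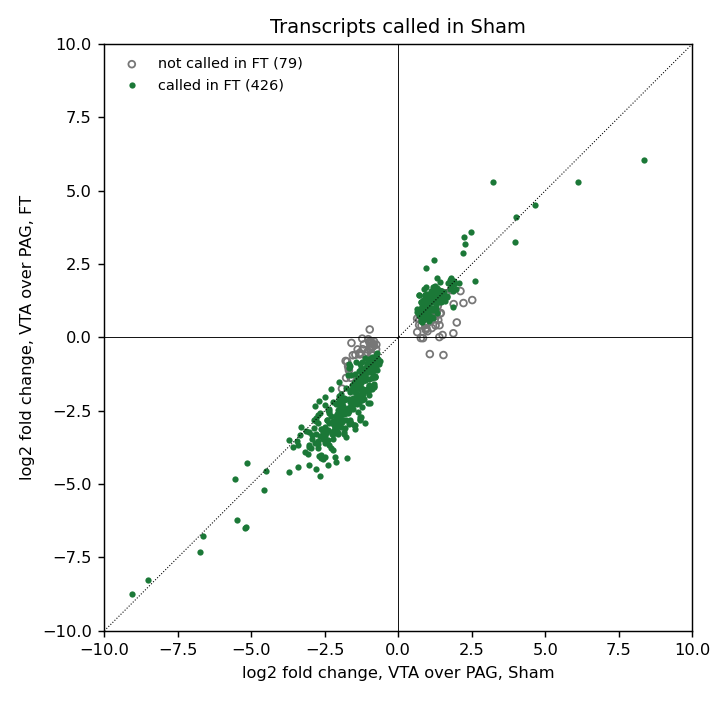
Log2 fold change of the VTA over the PAG in FT (y axis) against that in Sham (x axis) for the 505 transcripts called in Sham and tested in FT, with the line of equal values dotted. The 426 filled points were called in FT as well, and 500 of the 505 points lie in the quadrants of equal sign.

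Th had a log2FC of 4.51 in FT against 4.65 in Sham, Gabra6 one of -8.28 against -8.52, and Slc6a3 one of 5.31 against 6.11. Some other described calls differed more, with Npvf at 6.05 in FT against 8.35 in Sham and Ppp1r17 at -2.93 against -1.13. Neurod1 was at -6.47 against -5.19 and Pde6h at -4.365 against -3.04. A region by treatment interaction was called for 0 of 14109 transcripts by edgeR, with a smallest adjusted p of 0.653, whereas 1066 had an unadjusted p under 0.05 and DESeq2 called 16. Of the 41 transcripts called in Sham and described here, 36 were called in FT, Cga and Rln3 had too few reads to be tested there, and Asb4, Gal and Tacr3 were not called. Asb4 had a log2FC of 0.14 in FT (edgeR adjusted p = 0.924), with the VTA higher in 2 of the 4 pairs. Gal had one of 0.84 (edgeR adjusted p = 0.371) and Tacr3 one of 0.62 (edgeR adjusted p = 0.355), with the VTA higher in 3 pairs each. Of the 54 genes of the lists that were tested in both and not called in Sham, 21 were called in FT (13.4% of all transcripts were), 16 higher in the VTA and 5 in the PAG. Among them were Sncg (log2FC = 1.46 in FT, -0.11 in Sham) and Chga, a granin of secretory vesicles (0.64, -0.21), the 2 with opposite signs, and Cartpt (2.28, 0.73), Slc17a6 (0.91, 0.53), Sox10 (1.43, 0.56) and Cbln1 (-1.20, -0.29). The 12 GABA-A, glycine and glutamate receptor genes had a median log2FC of 0.05 in FT against -0.27 in Sham. Of these, 4 were called higher in the PAG and Grm3 (0.93, edgeR adjusted p = 0.00559) higher in the VTA. Single genes also had uneven FT samples. Npvf was at 77.3, 41.8, 1.27 and 1.29 CPM in the FT samples of the VTA, where replicate 1 was above the Sham range, replicate 3 within it and replicates 4 and 5 below it. Slc6a3 was at 19.8, 156, 5.32 and 2.58 CPM in the same samples, again low in replicates 4 and 5. Cga was at 0.760, 0.406, 2.23 and 2.79 CPM there, below every Sham VTA sample, and did not have enough reads for the test in FT.

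Over the 25 Sham regions, the VTA had the highest median of Slc6a3 (65.4 CPM), Th (333 CPM), Ermn (473 CPM) and Ugt8 (278 CPM). For Th the next regions were LC (152 CPM) and Arc (77.8 CPM), both known sites of catecholamine neurons, in the opposite order over replicates 4 and 5 alone, where LC was at 37.4 CPM. For Ugt8 SNT, the nucleus of the solitary tract, followed at 275 CPM. One of the 4 SNT libraries, replicate 3, holds 4586 counts. Without it SNT was first for Ugt8 (281 CPM) and second for Ermn (440 CPM), and over replicates 4 and 5 alone the VTA was the sixth region for Ermn and the fourth for Ugt8, while it stayed first for Th and Slc6a3. Both settings were chosen after the values had been seen. Klk6 and Apod were highest in Raphe, at 308 and 4371 CPM, and the VTA was the third region for both, and over replicates 4 and 5 alone they were highest in SNT. The PAG had the highest median of Gabra6, Cbln3, Neurod1, Krt8, Rgl3, Odf3b, Grm4, Ppp1r17 and Mlf1, of which Krt8, Grm4 and Mlf1 were not highest there over replicates 4 and 5 alone. For Krt8 and Mlf1 the next region was PVN, which the study lists as the paraventricular nucleus of the thalamus (23.3 and 24.8 CPM, against 26.4 and 31.6 CPM in the PAG). Arc or PVN was highest for Drc1, Tekt4, Mns1, Tekt1 and Wdr96. The motile cilia gene Ccdc39 was highest in Arc (61.7 CPM), with the PAG at rank 12 of 25. Rfx3 was highest in dorDG, the dorsal dentate gyrus (45.1 CPM), with the PAG at rank 20. Rln3 was highest in LC (28.0 CPM), then Raphe (8.63 CPM) and the PAG (3.85 CPM), but over replicates 4 and 5 alone the PAG (2.94 CPM) came before Raphe (0.669 CPM). These orders are descriptions of medians and neighbouring regions were not tested against each other.

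**Figure D5:**
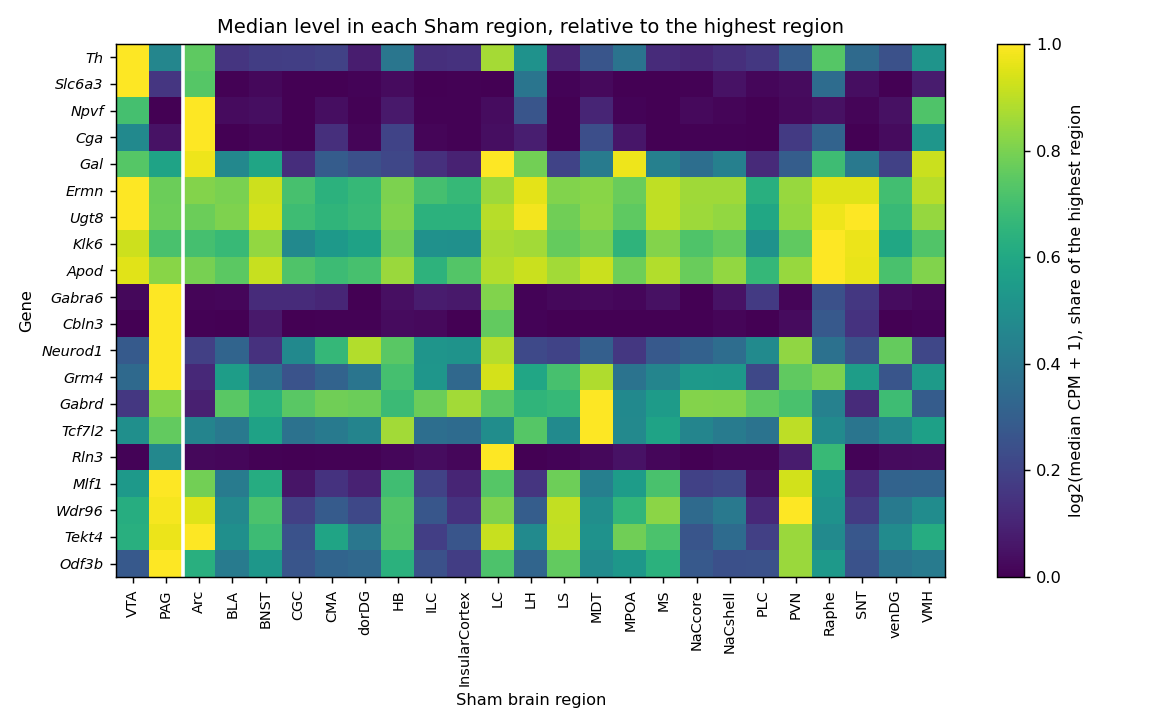
Median level of 20 genes (rows) in each of the 25 Sham regions (columns, the VTA and the PAG first), as log2(median CPM + 1) divided by the value of the highest region for that gene (colour, from 0 to 1). Arc has 2 samples and 1 of the 4 SNT samples has few reads. Th and Slc6a3 peak in the VTA, Npvf and Cga peak in Arc, and Gabra6 and Cbln3 are bright in the PAG and LC. The motile cilia genes drawn here, Mlf1, Wdr96 and Tekt4, are bright in the PAG, PVN, Arc and LS (lateral septum).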

How the data were processed

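Samples were grouped by the labels for region and treatment. The authors deposited raw read counts per Ensembl transcript, made from 76 bp paired-end reads of a stranded total RNA kit with STAR on rn5 and HTSeq, with no normalization. The sample labels give polyA RNA as the molecule, which differs from that kit, and the difference was not resolved here. The strand setting of the counting is not given in the sources used here, so overlapping and antisense genes cannot be told apart, and the same holds for near-identical copies. The 5 summary lines of each file were dropped, which left 29188 transcripts. In the 8 libraries, reads outside annotated features were between 22% and 48.7% and ambiguous reads between 2.04% and 8.10%, both of all reads each file lists. Total counts limit the precision, and intervals and SE cover the spread between pools, which may be technical in part.

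Counts were fitted with edgeR 4.0.16 in R 4.3.3 (TMM, filterByExpr, quasi-likelihood test, replicate number as a block). The p-values were adjusted over all transcripts tested. The filter used a minimum count of 10, taken as a CPM cutoff at the median library size, and a total of 15 reads. The cutoff had to be reached in as many samples as a group holds, so reads in 1 region alone could be enough. The SE was taken from the log2FC and the F statistic, as the size of the first over the root of the second. The study used replicate numbers as batches. Deviations from the group means of VTA and PAG samples with the same number correlated with r from 0.45 to 0.738 in the 4 pairs, so the numbers were taken as pairs. Different numbers gave r from -0.639 to 0.663 (median -0.348), the highest between VTA replicate 4 and PAG replicate 5. Whether equal numbers mean the same 10 rats is not given in the sources used here. In simulated counts of the Sham comparison over 13055 transcripts, edgeR called 52 of 100 transcripts changed 2-fold, 97 of 100 changed 4-fold and 11 unchanged ones. The simulated spread between samples was capped at the median over transcripts. Noisier transcripts were thus simulated with less spread than they had, and these rates do not cover them. DESeq2 1.42.0 was an alternative, as were fits with no block, with median-ratio factors, without a filter on low counts, with a threshold of 0.05 on the adjusted p, with an absolute log2FC of at least 1, each replicate left out and one fit with the FT samples.

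Names came from a supplementary table of the study that names 1845 transcripts, all found in the files. Its comparison columns were not used. Single values of some genes are not reported here. The genes described are the 12 named calls with the largest log2FC in each direction that had a mean of at least 2 CPM in the higher region and the same sign in 4 pairs, called members of gene lists (up to 4 per list), the dopamine and serotonin markers, and at most 2 unnamed transcripts per direction. Genes named beyond this rule, such as list members that were not called, were chosen after their values were seen. Members and lists were chosen with earlier results of these data known. Summed list levels were scaled over the 16 Sham and FT samples. Promoters are RefSeq entries of GRCr8, matched by symbol. Python 3.11.15, pandas 2.3.3, numpy 2.4.6 and matplotlib 3.10.9 were used.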

Additional observations from a re-analysis of the deposited data

Results flagged for a closer look

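In 102 groups of 4 samples, taken from the 51 transcripts described one by one, 5 had a sample whose gap to the nearest other sample took more of the group's range than Dixon's test allows, about as many as the 1 in 20 that chance gives. Npvf was at 0.481 CPM in PAG replicate 1, from 3 reads, against 0.0318 CPM or less in the other PAG samples. Apod was at 515 CPM in PAG replicate 3, below the other 3 PAG samples. The unnamed transcript ENSRNOT00000016452 was at 0.606 CPM in VTA replicate 1, from 1 read, against 20.9 to 23.3 CPM in the other VTA samples. Cbln3 was at 0.323 CPM in VTA replicate 4 and at 0 in the others. The unnamed transcript ENSRNOT00000010792 was at 9.34 CPM in PAG replicate 4, above the other PAG samples. VTA replicate 1 is the shallowest library.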

How the results depend on the processing

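The 521 Sham calls became 732 with DESeq2, 516 with median-ratio factors, 357 at an adjusted p of 0.05, 387 at an absolute log2FC of at least 1, 736 in one fit with FT samples, 1400 with no low-count filter and 61 with no replicate block, and between 100 and 570 with 1 replicate left out. The 61 calls with no replicate block are all among the 521. The share of calls higher in the VTA was 37.0%, 16.4% with no replicate block and 22.2% without replicate 3. The 1734 FT calls became 1148 at an adjusted p of 0.05, 226 with no replicate block and 754 to 2588 with 1 replicate left out (1096 without replicate 3, 754 without replicate 5). The 0 interaction calls became 16 with DESeq2, 197 with no low-count filter, and 0 to 8 with 1 replicate left out (8 without replicate 1). The cause was not tested. Of the 41 calls described one by one, 4 of them without a gene name, 41 held with DESeq2, 20 with no replicate block (lost were Ermn, Asb4, Apod, Evi2a, Anlnl1, Gal, ENSRNOT00000016452, Krt8, Pde6h, Grm4, Cck, Tacr3, Pvalb, Grin2c, Kcnab1, Tspan2, Aspa, Ppp1r17, Drc1, Tekt4 and Mns1), 27 without replicate 3 and 23 of the 38 fitted without replicate 4, with none reversed. Genes that were not called changed sign. With 1 replicate left out, the log2FC ranged from -0.43 to 0.29 for Sncg (positive without replicate 1), from -0.09 to 0.33 for Klhl1 (-0.01 without replicate 1, -0.09 without replicate 3) and from -1.97 to 0.56 for Hcrt (0.56 and 0.37 without replicates 1 and 3), and Cartpt had -0.41 with no replicate block. Genes with a few reads in one region, such as Npvf, Cga, Rln3 and Cbln3, have imprecise fold changes at this depth.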

Other observations

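Further named calls, chosen after their values were seen, include signalling and structural genes of neurons and glia. Towards the VTA, Nefh, the heavy neurofilament chain of large axons, had a mean of 316 CPM against 163 CPM in the PAG (log2FC = 0.95, edgeR adjusted p = 0.0540), with overlapping groups but the same sign in 4 pairs. S1pr5, a sphingosine-1-phosphate receptor of oligodendrocytes, had 32.4 against 12.6 CPM (log2FC = 1.18), and Pmp22, a peripheral myelin protein, 72.3 against 37.9 CPM (log2FC = 0.89).

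Towards the PAG, Gchfr, the feedback regulator of the enzyme that starts the synthesis of the tyrosine hydroxylase cofactor, had a mean of 73.0 CPM against 27.3 CPM in the VTA (log2FC = -1.27, edgeR adjusted p = 0.0184) without overlap. Cacnb4, a calcium channel beta subunit, had 102 against 57.3 CPM (log2FC = -0.84) and Ryr1, an intracellular calcium release channel, 5.89 against 1.94 CPM (log2FC = -1.31), each without overlap. Ppp1r1b, which encodes the dopamine-regulated phosphatase inhibitor DARPP-32, had 36.4 against 15.5 CPM (log2FC = -1.09) with overlapping groups. Each of these 7 genes had the same sign in the FT samples.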
